A study of Homo sapiens with 8 samples.

Results

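The genes described here are the 82 genes of the human cytosolic ribosome among 22257 gene symbols measured: 49 of the large and 33 of the small subunit. They were chosen by symbol alone, as RPL or RPS with a number and at most an A, L or X after it, together with RPLP0, RPLP1, RPLP2 and RPSA. Kinases of the RPS6K family were left out. RNA was sequenced from RD-ES/USP6, a pool rather than a single clone of the Ewing sarcoma line RD-ES, in which doxycycline switches on the ubiquitin-specific protease USP6. All 4 groups carried the transgene and had 2 replicates each. Untreated cells received neither agent, interferon cells had 24 hours of interferon alpha at 1000 U/mL, doxycycline cells received doxycycline, and cells given both had 24 hours of doxycycline before the 24 hours of interferon. The labels do not state how long the doxycycline cells without interferon were kept in the drug, and no cells that lacked the transgene but received doxycycline were among the samples analysed, so USP6 and the drug itself cannot be told apart. Whether replicates came from separate cultures is not stated, and the p-values refer to the spread between these libraries, which may be technical.

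A ribosome joins a small subunit, which decodes the messenger, to a large subunit, which forms peptide bonds. Most messengers of its proteins begin with a C followed by a run of pyrimidines, the 5′ terminal oligopyrimidine (TOP) tract, through which LARP1 and the mTOR pathway control their translation and stability. Several free ribosomal proteins also bind MDM2, the ubiquitin ligase that keeps p53 low. Interferon alpha induces enzymes that limit translation, such as PKR and RNase L.

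The starts of these genes show how widely the TOP sequence is shared among the members. RefSeq windows from 250 bases before to 50 bases after the annotated start, on GRCh38.p14, were at hand for 64 members, and the first listed window was used for each. The first transcribed base was C in 46 of 64 (71.9%), against 15% of 27305 windows over all genes. A C followed by 4 bases that were each C or T opened 42 of 64 (65.6%), against 4.04% of all windows. The letters CCGGAA stood on either strand in 35 of 64 (54.7% against 17.6%), and CTTTCC in 29 of 64 (45.3% against 26.3%). Both strings can overlap as CTTTCCGG, which was present in 5 of 64 (7.81% against 1.24%). The 50 bases before and 20 bases from the annotated start are given for 3 members that were lower after interferon in doxycycline-treated cells (RPLP0, RPS21, RPS7), for 3 of the members with large falls under both agents (RPL36, RPS9, RPS28), and for RPL39 and RPS27L, which passed no test before the correction for GC content described later. Capitals mark the run of C and T that begins at the start, where there is one beginning with C.
RPLP0, minus strand, chr12:120201092-120201161: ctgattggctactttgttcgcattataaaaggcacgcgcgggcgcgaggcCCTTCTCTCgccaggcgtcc
RPS21, plus strand, chr20:62387053-62387122: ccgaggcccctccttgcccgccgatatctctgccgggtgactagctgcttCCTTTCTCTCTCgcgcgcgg
RPS7, plus strand, chr2:3575210-3575279: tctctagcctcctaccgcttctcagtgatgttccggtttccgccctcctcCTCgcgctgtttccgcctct
RPL36, plus strand, chr19:5690245-5690314: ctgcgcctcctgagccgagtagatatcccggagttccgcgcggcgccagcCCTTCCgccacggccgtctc
RPS9, plus strand, chr19:54200808-54200877: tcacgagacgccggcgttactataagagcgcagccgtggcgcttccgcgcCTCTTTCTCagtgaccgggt
RPS28, plus strand, chr19:8321446-8321515: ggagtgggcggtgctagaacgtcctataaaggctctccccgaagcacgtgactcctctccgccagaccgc
RPL39, minus strand, chrX:119791611-119791680: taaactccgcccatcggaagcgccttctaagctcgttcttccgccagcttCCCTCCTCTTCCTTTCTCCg
RPS27L, minus strand, chr15:63157458-63157527: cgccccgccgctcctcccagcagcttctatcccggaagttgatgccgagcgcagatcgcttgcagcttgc
The runs were 9 bases long in RPLP0, 12 in RPS21, 3 in RPS7, 6 in RPL36, 9 in RPS9 and 19 in RPL39. RPS28 and RPS27L have none at the annotated start, although pyrimidines follow close behind it in RPS28.

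The libraries held 9304569 to 11984196 reads in the rows used. USP6 stood at 8.77 to 10.3 CPM (read counts scaled to a common library size) in the 4 libraries without doxycycline. With doxycycline alone it stood at 569 and 558 CPM, and with both agents at 409 and 377 CPM. USP6 was thus lower with both agents than with doxycycline alone (log2 fold change -0.52, edgeR adjusted p = 0.00443). MX1, an antiviral interferon target, rose from 6.98 and 8.26 CPM in untreated cells to 899 and 928 CPM after interferon, and was 80.1 and 83.9 CPM with doxycycline alone. Of the Ewing sarcoma markers, CCND1 (1040 to 1497 CPM), PRKCB (303 to 425 CPM) and PAX7 (165 to 243 CPM) were high and NKX2-2 was 10.9 to 20.9 CPM, whereas CD99, the surface antigen used in diagnosis, reached only 2.17 to 3.02 CPM. The leukocyte marker PTPRC was at most 1.89 CPM, and summed markers of epithelium and endothelium were at most 2.26 and 1.64 CPM in any library. The summed fibroblast markers COL1A1, COL3A1 and LUM were 31.8 to 53.3 CPM over all libraries.

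Ribosomal protein messengers took a smaller share of the reads in every library with interferon than in every library without it. The 82 genes together held 3.30% and 3.19% of the reads in untreated cells, 2.91% and 2.84% with interferon, 3.28% and 3.34% with doxycycline, and 2.75% and 2.82% with both agents. The 4 libraries without interferon and the 4 with it did not overlap, while doxycycline and untreated libraries did. Means were 3.25% ± 0.0759 (SD, n = 2) untreated, 2.87% ± 0.0492 with interferon, 3.31% ± 0.0460 with doxycycline and 2.78% ± 0.0485 with both. Interferon thus went with 0.886 times the untreated share and, in doxycycline-treated cells, with 0.841 times the doxycycline share; doxycycline alone went with 1.02 times the untreated share. The exact 95% binomial interval of untreated replicate 1, 3.29% to 3.31%, covers counting error only. Both subunits shared this: the large one held 1.91% to 2.01% of reads without interferon and 1.67% to 1.75% with it, the small one 1.28% to 1.34% and 1.08% to 1.16%. The genes that rose with interferon count in the total too. When genes that rose with interferon were left out of the total, the share was 3.25% to 3.42% without and 2.94% to 3.06% with interferon. Marker lists also differed with interferon, in part. The 3 summed fibroblast markers were 36.8 and 51.9 CPM untreated, 31.8 and 37.1 with interferon, 51.6 and 53.3 with doxycycline and 39.2 and 41.6 CPM with both. Untreated and interferon libraries overlapped, and 0 of the 3 were called with interferon alone. With both agents 1 of the 3 fell against doxycycline, where 0.904% of all genes were called lower. Against untreated, 1 of the 3 rose and 1 fell with both agents. The 10 summed Ewing sarcoma markers went the other way, with 2255 and 2375 CPM untreated, 2479 and 2728 with interferon, 1946 and 1974 with doxycycline and 2293 and 2311 CPM with both. Of the 10, 3 rose in the interferon effect averaged over both doxycycline states, where 646 of all 14601 genes were called higher. The part of either in the members' share was not tested. In these bulk RNA samples, a lower level per cell and fewer cells expressing a gene cannot be told apart.

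**Figure D1:**
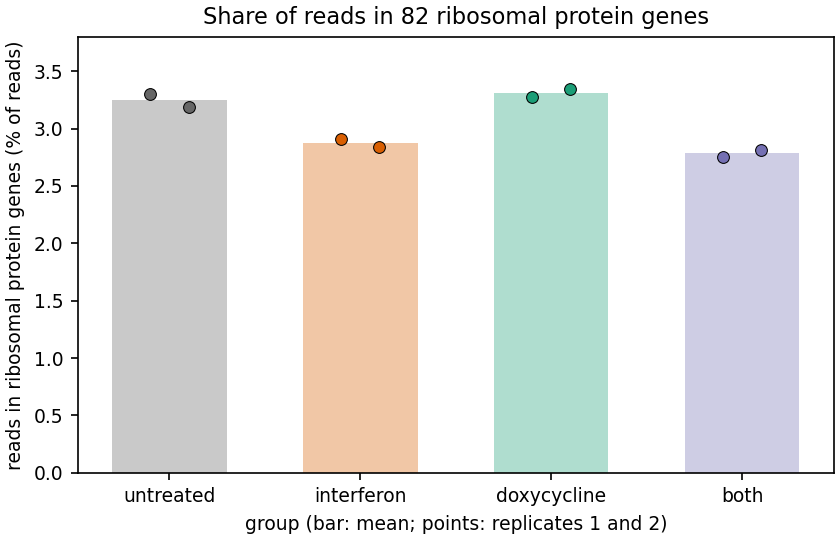
Percent of the reads in the 82 ribosomal protein genes (y axis, from 0) for each group (x axis); bars are means and points the 2 replicates. The 4 libraries with interferon lie between 2.75% and 2.91%, the 4 without it between 3.19% and 3.34%.

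The members differed widely from one another in level. Per kilobase of an annotated transcript and averaged over the 8 libraries, RPL35A (1875 CPM per kilobase), RPS24 (1717) and RPL11 (1680) stood highest. RPS27L (7.55) and RPS28 (7.13 CPM per kilobase) were among the lowest of the 79 members with a length. The length taken for RPS27L, 6434 bases, is long for its short protein, so its value per kilobase is uncertain. Ribosomal protein genes have many processed pseudogenes, near-identical copies that can take up or split reads. GENCODE 29 lists 91 under RPL23A, 74 under RPSA, 66 under RPL21 and 61 under RPL7. RPL21 and RPL7, whose proteins are ordinary large subunit components, stood at only 11.1 and 10.9 CPM per kilobase. Over the members the rank correlation of level per kilobase with the number of pseudogenes was -0.14 (n = 79, a description). The median was 362 CPM per kilobase in 28 members with 0 to 4 pseudogenes, 375 in 27 with 5 to 15, and 178 in 24 with over 15. Levels of members with many copies are uncertain.

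**Figure D2:**
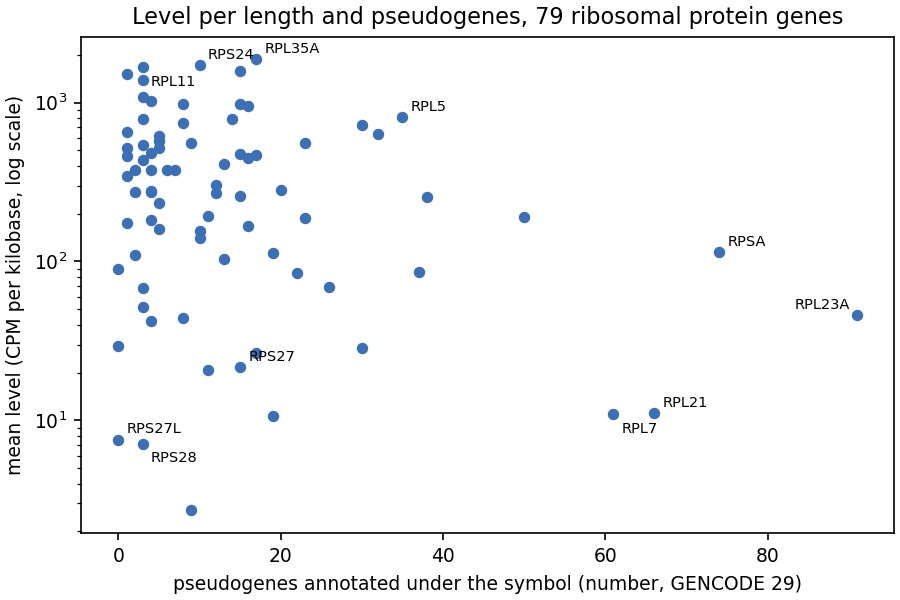
Mean level over 8 libraries in CPM per kilobase (y axis, log scale) against the number of pseudogenes annotated under the symbol (x axis); each point is 1 of 79 members. RPL21 and RPL7, with 66 and 61 pseudogenes, lie near the bottom, and RPS28 lies there with few.

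After the filter on low counts 80 of the 82 members were tested. RPL10L and RPL3L, the retrogene or muscle-type counterparts of RPL10 and RPL3, were not. RPL10L had 0 reads in all libraries, which allows up to 0.322 CPM (3 reads) in the shallowest library, and RPL3L had 1 to 5 reads per library.

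Interferon alone lowered no single member past the threshold, while 75 of the 80 fitted changes were negative. In interferon against untreated cells edgeR called 0 of 80 at an adjusted p under 0.05, where 2.12% of all 14601 genes were called and 0.5% were called lower. At an unadjusted p under 0.05, 15 of 80 were lower (18.8%, against 5.39% of all genes) and 0 higher, and DESeq2 called 1 lower. The median log2 fold change was -0.14, or -9.39%, against -0.01 over all genes, with a range of -0.63 to 0.06. In 59 members both interferon libraries lay below both untreated ones, against 22.7% of all genes. With 2 libraries against 2 an exact permutation test of 1 value cannot go below p = 0.33. The lowest values were those of RPLP1, the stalk protein P1 (-0.63 ± 0.22, SE), RPS28, which lines the messenger exit (-0.51 ± 0.19), and RPS16 (-0.42 ± 0.38). The highest were RPL22, a large subunit protein that also binds a small RNA of Epstein-Barr virus (0.06 ± 0.10), RPL21 (0.05 ± 0.18) and RPL9 (0.02 ± 0.14).

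Among doxycycline-treated cells 4 members were lower past the threshold where interferon was also given. The 2 groups differed in USP6 level and may have differed in time in doxycycline. Neither can be told apart from interferon here. RPL23, RPLP0, RPS21 and RPS7 fell in cells given both agents against cells given doxycycline alone (edgeR, 4 of 80 lower and 0 higher; 3.33% of all genes were called and 0.904% were called lower). At an unadjusted p under 0.05, 35 of 80 were lower (43.8%, against 7.45% of all genes) and 0 higher, and DESeq2 called 5 lower. The median was -0.21, or -13.75%, against -0.02 over all genes, with a range of -0.60 to 0.16, and 75 of 80 lay below 0. Both libraries with both agents lay below both doxycycline libraries in 45 members, against 21.4% of all genes. The lowest changes were RPLP1 (-0.60 ± 0.23), RPS9 (-0.50 ± 0.17) and RPS28 (-0.47 ± 0.20), and the highest were RPS27 (0.16 ± 0.20), RPL39 (0.07 ± 0.12) and RPL41 (0.05 ± 0.12), none of which was called. With a single library left out, at most 1 of these 4 calls held at a time: RPS21 and RPS7 lost the call whichever of the 8 libraries was left out, RPLP0 in 7 cases and RPL23 in 5. The number of members called ranged from 0 to 4. Over the fits without 1 library the log2 fold changes were -0.45 to -0.31 for RPL23 and -0.46 to -0.28 for RPLP0. They were -0.43 to -0.29 for RPS21 and -0.41 to -0.30 for RPS7. With the replicate number as a block no member was called.

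**Figure D3:**
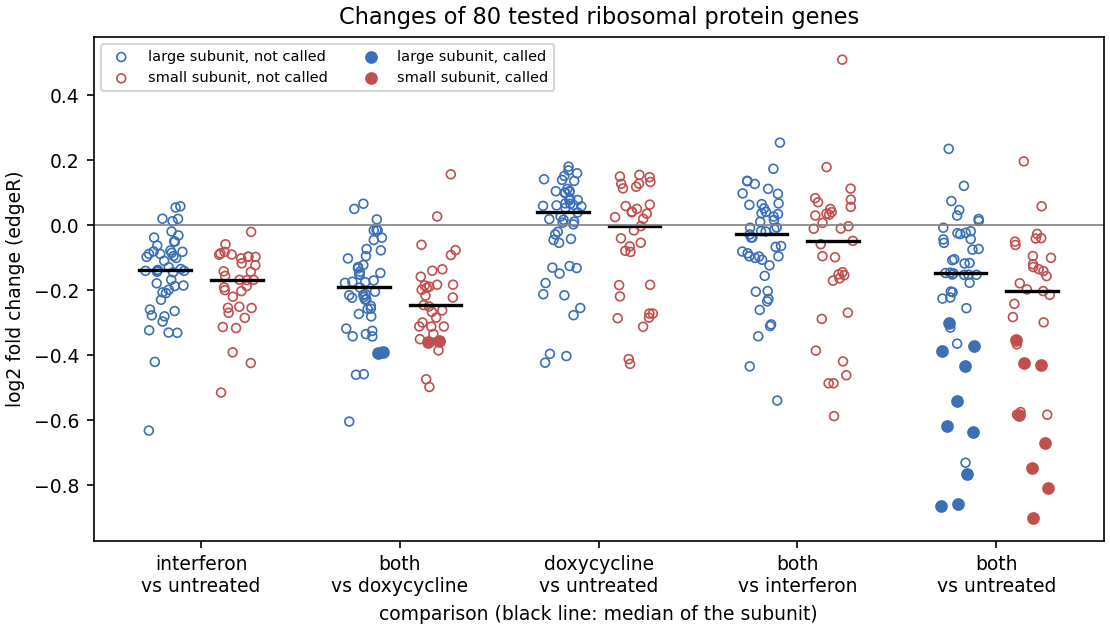
Log2 fold change of each of 80 tested members (y axis) in 5 comparisons (x axis), large subunit in blue and small in red; filled points passed an adjusted p under 0.05 and black lines are medians. In both interferon comparisons 75 of 80 points lie below 0, while the medians for doxycycline against untreated and both agents against interferon lie near 0.

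The interferon comparisons in the absence and presence of doxycycline use different libraries. In the presence of doxycycline the USP6 level differed as well, and time in the drug may have. This also enters the averaged effect and the test of a difference given below. By log2 fold change 71 of 80 members were lower in both and 1 was higher in both, and 38 had groups that did not overlap, lower, in both, against 10.5% of all genes. The members' changes in the 2 comparisons correlated with a Spearman rho of 0.60 (n = 80, a description over genes that share libraries, depth and base composition). When the 2 interferon effects were averaged in one fit, 12 of 80 were lower and 0 higher (15% of members, against 3.14% of all genes called lower). The 12 were RPL23, RPL3, RPL5, RPLP0 and RPLP1 of the large subunit and RPS20, RPS21, RPS3, RPS3A, RPS6, RPS7 and RPS9 of the small. DESeq2 called 22, and 47 were lower at an unadjusted p under 0.05 (58.8%, against 11.8% of all genes). The median was -0.18 against -0.02 over all genes, and in 25 members all 4 libraries with interferon lay below all 4 without (5.51% of all genes). Between 1 and 18 were called with single libraries left out, and RPL23 was the member that kept its call without each one. A test of whether interferon acted differently with and without doxycycline called 0 of 80 (edgeR; 0 at an unadjusted p under 0.05 and 0 by DESeq2, with 0.171% of all genes called and 1.97% at an unadjusted p under 0.05), with a median difference of -0.05 and a range of -0.30 to 0.47 at a median standard error of 0.14. The lowest difference was that of RPS26 (-0.30 ± 0.21), and the highest were RPS27 (0.47 ± 0.29), RPL41 (0.24 ± 0.17) and RPS13 (0.14 ± 0.13).

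The stalk of the large subunit recruits the elongation factors and is built on RPLP0, to which dimers of RPLP1 and RPLP2 bind. RPLP0 stood at 733 and 738 CPM in untreated, 628 and 627 in interferon, 692 and 733 in doxycycline and 511 and 578 CPM in doubly treated cells. The interferon libraries did not overlap with their controls in either state. It fell by 0.39 ± 0.09 (log2, SE) in cells given both agents against doxycycline (edgeR adjusted p = 0.0379), but was not called against untreated with interferon alone (-0.23 ± 0.09, adjusted p = 0.322). RPLP1 stood at 73.0 and 61.0 CPM untreated, 43.0 and 43.5 with interferon, 40.0 and 72.4 with doxycycline, and 33.5 and 40.5 CPM with both. Its doxycycline replicates were far apart, and the interferon libraries lay below both untreated ones. RPLP2 stood at 631 and 548 CPM untreated, 503 and 479 with interferon, 453 and 565 with doxycycline and 403 and 513 CPM with both, and was not called in any comparison.

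Of the large subunit core, RPL23, which can also bind MDM2, had the smallest p for interferon. It stood at 688 and 708 CPM untreated, 574 and 562 with interferon, 796 and 738 with doxycycline and 611 and 559 CPM with both. All 4 interferon libraries lay below all 4 others. It fell by 0.39 ± 0.09 with both agents against doxycycline (edgeR adjusted p = 0.0323) and by 0.34 ± 0.06 in the averaged effect (adjusted p = 0.00587), and alone with interferon gave -0.30 ± 0.09 (adjusted p = 0.163). RPL5, which with RPL11 and the 5S ribosomal RNA forms the particle that binds MDM2, stood at 869 and 911 CPM untreated, 723 and 764 with interferon, 950 and 903 with doxycycline and 802 and 724 CPM with both. RPL5 fell by 0.27 ± 0.06 in the averaged effect (edgeR adjusted p = 0.0263). Its partner RPL11 gave -0.11 ± 0.06 (adjusted p = 0.316), with 1717 and 1700 CPM untreated, 1639 and 1576 with interferon, 1885 and 1791 with doxycycline and 1682 and 1681 CPM with both. RPL3, close to the peptidyl transferase centre, stood at 188 and 170 CPM untreated and 145 and 139 with interferon, and at 138 and 178 with doxycycline and 97.0 and 133 CPM with both. RPL13A, which leaves the ribosome in interferon gamma-treated monocytes to form a translation-silencing complex, stood at 179 and 164 CPM untreated and 163 and 142 with interferon. It was not called (averaged effect -0.21 ± 0.06, edgeR adjusted p = 0.0752). RPL22 stood at 165 to 196 CPM in all libraries.

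Of the small subunit, RPS21 and RPS7 were called in doxycycline-treated cells. RPS21, a protein of late small subunit maturation, stood at 317 and 298 CPM untreated, 259 and 256 with interferon, 279 and 308 with doxycycline and 224 and 234 CPM with both. RPS7, which also binds MDM2, stood at 195 and 199 CPM untreated, 176 and 181 with interferon, 221 and 206 with doxycycline and 168 and 165 CPM with both. Each was lower in all interferon libraries than in all libraries without it. RPS21 fell by 0.36 ± 0.08 (edgeR adjusted p = 0.0447) and RPS7 by 0.36 ± 0.08 (adjusted p = 0.0348) with both agents against doxycycline. RPS6, the substrate of the S6 kinases downstream of mTOR, stood at 585 and 593 CPM untreated, 522 and 527 with interferon, 676 and 616 with doxycycline and 548 and 493 CPM with both. It fell by 0.24 ± 0.06 in the averaged effect (edgeR adjusted p = 0.0432). RPSA, a small subunit protein once described as a laminin receptor, stood at 124 to 147 CPM in all libraries, and RPS4X, encoded on the X chromosome, at 765 to 959 CPM. Neither was called in any comparison.

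**Figure D4:**
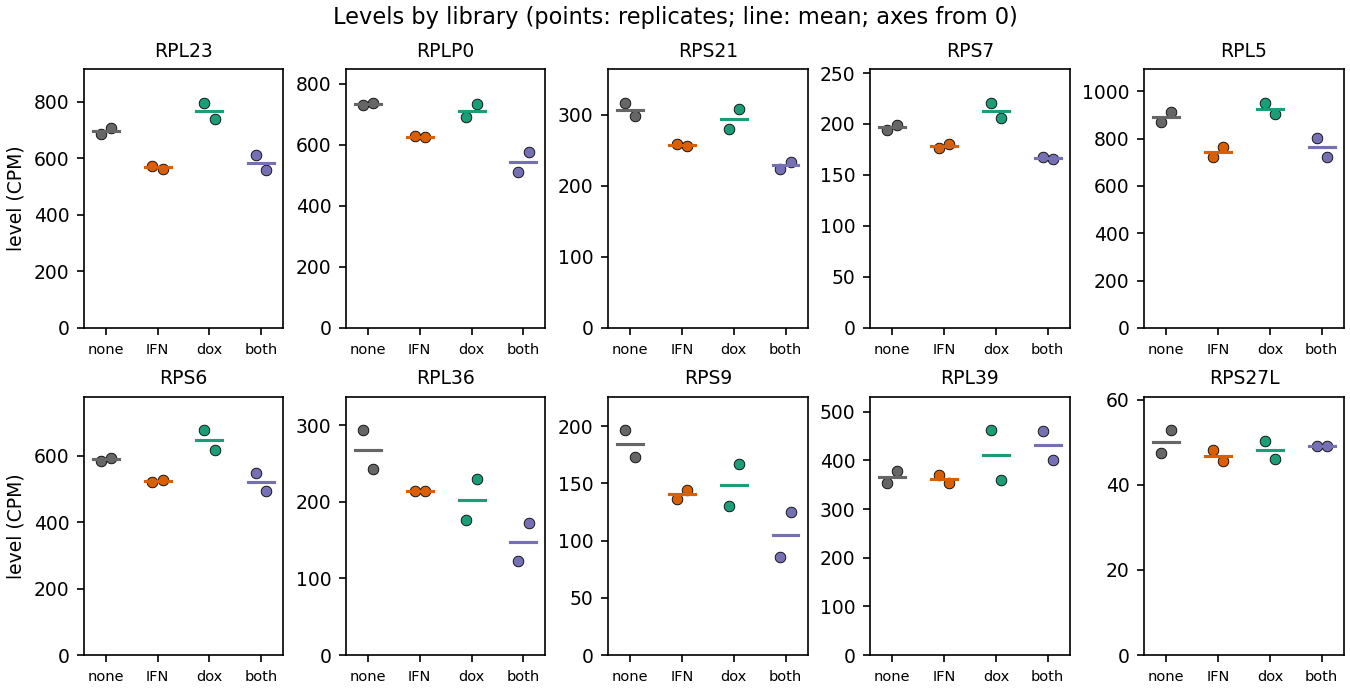
Levels in CPM (y axes, each from 0) of 10 members in untreated (none), interferon (IFN), doxycycline (dox) and doubly treated (both) cells; points are the 2 replicates and lines their mean. RPL23, RPS21 and RPS7 are lower in every interferon library than in every other, RPL36 and RPS9 split within the doxycycline groups, and RPS27L stays between 45.6 and 52.8 CPM.

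With doxycycline alone the members' median change was near 0. Against untreated cells edgeR called 0 of 80 (0 by DESeq2; 0.815% of all genes were called and 0.0959% were called lower), and 3 were lower at an unadjusted p under 0.05, against 6.36% of all genes. The median was 0.02 against 0.00 over all genes, with a range of -0.43 to 0.18, 46 above and 34 below 0. Groups lay apart lower in 12 and higher in 19 members, against 20.2% and 24.2% of all genes. The lowest were RPS28 (-0.43 ± 0.19), RPL35, at the tunnel exit (-0.42 ± 0.17), and RPS15, whose tail reaches the decoding site (-0.41 ± 0.19); the highest were RPL26 (0.18 ± 0.11), RPL39 (0.17 ± 0.12) and RPL31 (0.16 ± 0.09). In interferon-treated cells doxycycline gave 0 calls (edgeR; 1 by DESeq2; 1.34% of all genes were called and 0.274% were called lower), a median of -0.03 and a range of -0.59 to 0.51. At an unadjusted p under 0.05, 8 were lower, against 7.25% of all genes, and 1 was higher. Groups lay apart lower in 23 and higher in 9 members, against 22.9% and 23.1% of all genes. The lowest there were RPS26 (-0.59 ± 0.15, edgeR adjusted p = 0.0982) and RPL36 (-0.54 ± 0.17), and the highest RPS27 (0.51 ± 0.21), RPL39 (0.25 ± 0.12) and RPS13 (0.18 ± 0.09). Averaged over both interferon states, edgeR called RPS26 and RPL36 lower (2 of 80, or 2.5%, against 2.93% of all genes called lower), a share near that of all genes. RPS26, which contacts the messenger at the exit site and is mutated in Diamond-Blackfan anaemia, stood at 19.5 and 22.6 CPM untreated, 19.3 and 20.4 with interferon, 17.5 and 17.0 with doxycycline and 13.6 and 12.8 CPM with both. It lay lower in every doxycycline library than in every other, and fell by 0.44 ± 0.10 (edgeR adjusted p = 0.0321). The calls of RPS26 and RPL36 were each lost in 6 of the 8 fits that left out 1 library, with values of -0.49 to -0.39 and -0.61 to -0.36.

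Cells given both agents had more members called against untreated cells than either agent alone, although the groups lay apart, lower, in fewer members than with interferon alone. In that comparison edgeR called 18 of 80 members lower (22.5%) and 0 higher, against 13.9% of all genes called and 6.73% called lower, and DESeq2 called 21 lower. At an unadjusted p under 0.05, 31 were lower (38.8%, against 16% of all genes) and 0 higher. The median was -0.15, or -10.03%, against -0.02 over all genes, and the groups lay apart, lower, in 50 members (28.0% of all genes). The members with the smallest p were RPL36, a protein of the large subunit (-0.86 ± 0.17, edgeR adjusted p = 0.00727), RPS21 (-0.42 ± 0.08, adjusted p = 0.00887), RPLP0 (-0.43 ± 0.09, adjusted p = 0.00989), RPS9, near the messenger entry (-0.81 ± 0.17, adjusted p = 0.0100), and RPS28 (-0.90 ± 0.20, adjusted p = 0.0135). RPLP1 gave -0.86 ± 0.23 (edgeR adjusted p = 0.0309). RPL36 stood at 293 and 243 CPM untreated, 215 and 214 with interferon, 176 and 230 with doxycycline and 123 and 173 CPM with both. RPS9 stood at 197 and 173 CPM untreated, 137 and 145 with interferon, 130 and 167 with doxycycline and 85.6 and 125 CPM with both. RPS28 stood at 13.6 and 11.8 CPM untreated, 8.38 and 9.37 with interferon, 8.34 and 10.5 with doxycycline and 6.96 and 6.63 CPM with both. In all 3 the doubly treated libraries lay below every untreated one, but the replicates of RPL36 and RPS9 were far apart within the doxycycline and doubly treated groups, replicate 1 being the lower each time. The calls depended on single libraries: 0 members were called without replicate 1 of the doubly treated cells and 22 without its replicate 2, 3 and 6 without untreated replicate 1 and 2, and 8 and 7 without interferon replicate 1 and 2.

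The falls with both agents ran with the GC content of the transcripts. Over 79 members the rank correlation of the log2 fold change with GC content was -0.64 for both agents against untreated, -0.64 for doxycycline against untreated, -0.45 for interferon against untreated and -0.42 for both agents against doxycycline (descriptions; these comparisons share libraries). Over all genes the same values were -0.48, -0.41, -0.28 and -0.31. The trend differed between libraries. Taking each library's distance from the mean over libraries, its rank correlation with GC content was -0.67 in doxycycline replicate 1 and -0.73 in replicate 1 of both agents, 0.56 and 0.17 in their replicates 2, and 0.39 to 0.67 in the untreated and interferon libraries. In the 26 members of highest GC content (52.2% to 63.1%), which include RPL36, RPS9, RPLP0 and RPS28, the summed level was 9667 and 8946 CPM untreated, 7953 and 7957 with interferon, 7645 and 8996 with doxycycline and 6293 and 7669 CPM with both. In the 27 of lowest GC content (41.9% to 47.5%), which include RPL23, RPL39 and RPS27L, it was 13860 and 14150 CPM untreated, 12770 and 12670 with interferon, 15580 and 14430 with doxycycline and 13580 and 12640 CPM with both. The 26 of highest GC content held 14 of the 18 calls of both agents against untreated, with a median change of -0.43, against -0.07 in the 27 of lowest and -0.12 in the other 26. At both ends of the GC range the interferon libraries lay below both untreated ones. The doubly treated libraries lay below both doxycycline ones at the low end and overlapped with them at the high end. Whether the GC trend has a part in the members' falls was not tested.

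With every library corrected for GC content and length in the fit, the members' medians for interferon and for both agents moved toward 0 and the set of called members changed. Medians became -0.10 for interferon, -0.12 for both agents against doxycycline and -0.07 for both agents against untreated, while those over all genes became 0.01, 0.01 and 0.02. The median for doxycycline against untreated went from 0.02 to 0.03. Of the 18 calls of both agents against untreated, 11 were also called after correction and 7 were not, while 7 others were newly called lower. The corrected total was 18 lower and 1 higher, where 8.4% of all genes were called lower and 11.3% higher. The 4 calls against doxycycline all stayed, among 16 lower and 0 higher (3.82% of all genes called lower). Interferon alone gave 5 lower, namely RPL23 (-0.32, edgeR adjusted p = 0.00192), RPL5, RPL27A, RPS23 and RPS3A, where 2.52% of all genes were called lower. RPL23 fell by 0.42 with both agents against doxycycline after correction (edgeR adjusted p = 9.95e-05), and RPL36 by 0.30 with both agents against untreated (adjusted p = 0.00547), against 0.86 without correction. The member called higher with both agents against untreated was RPL39 (0.28, edgeR adjusted p = 0.0177). In the averaged doxycycline effect RPL30 (0.15) and RPL39 (0.21) were called higher and 3 members lower after correction, where 7.96% of all genes were called higher and 6.01% lower.

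**Figure D5:**
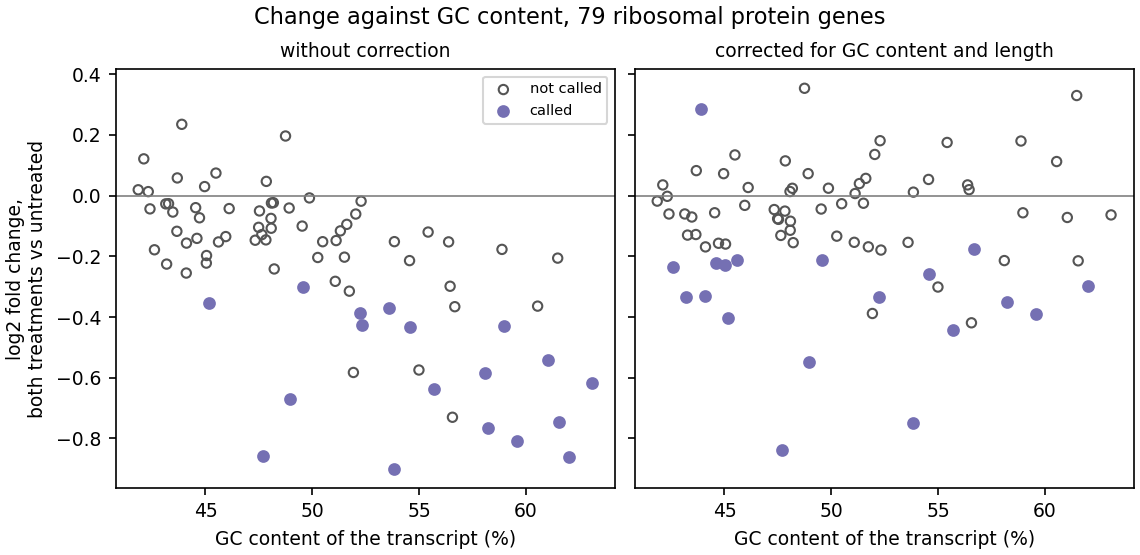
Log2 fold change of both agents against untreated (y axis) against the GC content of the transcript in percent (x axis), without correction at left and corrected for GC content and length at right; each point is 1 of 79 members, filled where the adjusted p was under 0.05. At left 14 of 18 calls lie among the 26 members of highest GC content; at right the calls spread over the range and RPL39 lies above 0.

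Members with and without a TOP start had medians close to each other, a difference that was not tested. The 42 tested members that begin with C and 4 further pyrimidines had a median log2 fold change of -0.18 with interferon and -0.20 with both agents against doxycycline, and the 21 tested members with other starts had -0.14 and -0.19. Of the 8 starts shown above, RPLP0, RPS21, RPS7, RPL36 and RPS9, with runs of 3 to 12 bases, and RPS28, with none, had groups apart and lower with interferon alone. RPL39, with the run of 19, and RPS27L, with none, did not. In that comparison groups lay apart and lower in 73.8% of the members tested and 22.7% of all genes. The 8 were picked in part for their test results, so they do not show whether the run matters.

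The paralog pairs differed in level. RPL39, which lines the exit tunnel, stood at 354 and 377 CPM untreated, 369 and 353 with interferon, 462 and 361 with doxycycline and 461 and 400 CPM with both, and its paralog RPL39L, best known from testis, at 61.9 to 74.3 CPM over all libraries. RPL39 was higher with both agents than in untreated cells in both libraries (0.24 ± 0.12), without passing the test (edgeR adjusted p = 0.210). RPS27L, a paralog of RPS27 that p53 induces, stood at 45.6 to 52.8 CPM, with log2 fold changes of -0.10 to 0.07 in the 5 comparisons between groups. RPS27 itself had only 64 to 106 reads per library (6.12 to 9.78 CPM). RPL41, the shortest ribosomal protein, stood at 43.4 to 53.5 CPM, and RPL10, one of the last proteins to join the large subunit, at 201 to 296 CPM. RPL10 fell with both agents against untreated (-0.39 ± 0.11, edgeR adjusted p = 0.0363), with a range of -0.55 to -0.23 over single libraries left out, 5 of which ended the call.

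Other genes of the pathway are given by list, from the fit without correction for GC content and length. In that fit the changes of all genes with both agents against untreated correlated with GC content at -0.48. The part of that trend in the list genes' changes was not tested. Over all 14601 genes tested, edgeR called 237 higher and 73 lower with interferon alone. With both agents it called 354 and 132 against doxycycline, and 1040 and 983 against untreated. Of 17 other TOP messengers tested, such as elongation factors, interferon alone changed 0 (median -0.12), and with both agents against doxycycline 1 fell, EEF1B2, an exchange factor subunit (-0.37, edgeR adjusted p = 0.0415; median -0.18). With both agents against untreated EEF1D, EEF1B2 and EEF2 fell (3 of 17; -0.75, -0.37 and -0.71). Of 6 ribosomal proteins outside the symbol rule, FAU, the fusion precursor of RPS30, fell with both agents against untreated (-0.56, edgeR adjusted p = 0.0168). Of 25 ribosome biogenesis genes 0 were called in either single interferon comparison. Their medians were 0.05 and 0.18, against -0.14 and -0.21 in the members. With both agents against untreated BOP1 fell (-0.78) and RRN3, a polymerase I factor, rose (0.32). With doxycycline against untreated 0 of the 25 were called, with a median of -0.23, against 0.02 in the members. At an unadjusted p under 0.05 (edgeR) 9 of the 25 were lower there, against 6.36% of all genes. In the averaged doxycycline effect 3 of the 25 were called lower, where 2.93% of all genes were. The 76 mitochondrial ribosomal protein genes had medians of -0.01 in both interferon comparisons, with 0 called in each (edgeR; 3 and 6 at an unadjusted p under 0.05), and held 0.524% to 0.588% of reads. With both agents against untreated 7 of the 76 fell (median -0.07), where 6.73% of all genes were called lower. In the averaged doxycycline effect 3 of the 76 fell, where 2.93% of all genes were called lower. Of 15 regulators of TOP messengers, SESN2, a brake on mTOR complex 1, rose with both agents against untreated (0.77, edgeR adjusted p = 0.0324), and of 9 hosts of small nucleolar RNAs GAS5, itself a TOP transcript, rose (0.34, adjusted p = 0.0371). Of 9 p53 targets, ZMAT3 fell with interferon alone (-0.64, edgeR adjusted p = 0.0325), FAS rose with both agents against doxycycline (0.84, adjusted p = 0.00471), and BTG2 and FAS rose with both agents against untreated (0.65 and 0.63).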

How the data were processed

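RNA sequencing measured 8 libraries of RD-ES/USP6 cells, in 4 groups of 2 taken from the labels. RNA was isolated with trizol and made into stranded total RNA libraries, per the labels' protocols. The authors deposited raw read counts per transcript, and another deposited column with no stated unit, marking 1 transcript for most symbols, was not used. The submitters' processing notes name CASAVA 1.8.2, edgeR and the build hg19. Not given in the sources used here are the aligner, the counting method and any use of strand.

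For each symbol the row with the highest total was kept. Counts were tested in R 4.3.3 with edgeR 4.0.16: TMM scaling, filterByExpr, and the quasi-likelihood test with 1 mean per group, adjusted by Benjamini-Hochberg over the 14601 genes tested, with a threshold of 0.05. The common biological coefficient of variation was 0.0972, with 4 residual and 6.87 prior degrees of freedom. CPM means read counts scaled by TMM-adjusted library size. Cell type markers and members that were not tested were instead scaled by the total reads in the rows used. DESeq2 1.42.0 was used as an alternative. The fitted fold changes were checked on simulated counts with planted changes, a fixed spread for all genes and no GC trend. That check does not cover how calls behave under such a trend. Transcript GC content and length came from GENCODE 29 (GRCh38) for 79 of 80 members tested and 98.79% of genes tested. The corrected fit used loess offsets for both.

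Members and lists were chosen with earlier results of these data known. The genes named are the 3 highest and 3 lowest changes in each comparison, the called members (the 5 with the smallest p where over 10 were called), a set of members with known roles and the extremes of level per length. Called members named beyond these were chosen after their values were seen, as were the contrasts averaging both states of the other agent, the crossed pairing and the removal of 2 libraries. A few genes that this rule names are not reported here.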

Additional observations from a re-analysis of the deposited data

How the results depend on the processing

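The counts of called ribosomal protein genes rested on single libraries more than the medians did. With each library left out in turn, the count ranged from 0 to 1 for interferon against untreated, 0 to 4 for both agents against doxycycline, 0 to 2 for both agents against interferon, 0 to 22 for both agents against untreated, 1 to 18 for the averaged interferon effect and 0 to 13 for the averaged doxycycline effect. The medians ranged from -0.21 to -0.17 for both agents against doxycycline, -0.048 to -0.013 against interferon, -0.17 to -0.15 for the averaged interferon effect and -0.033 to 0.0155 for the averaged doxycycline effect. Equal replicate numbers paired some groups and opposed others. Differences between replicates 1 and 2 correlated at 0.34 between untreated and interferon cells and at 0.45 between doxycycline and both agents. In the other pairs of groups the correlations ran from -0.35 to -0.12. With the replicate block 0 were called for both agents against doxycycline, 17 against untreated and 6 for the averaged interferon effect. A crossed pairing, chosen after seeing the data, called 35, 10 and 39 for both agents against doxycycline, interferon and untreated, 20 for interferon, 2 for doxycycline, and 53 and 25 for the averaged interferon and doxycycline effects. GC content and length correction called 16 and 1 for both agents against doxycycline and interferon, 5 for interferon, 25 and 5 for the averaged effects, with medians of -0.12 (against doxycycline), 0.0028 (against interferon), -0.074 (against untreated), -0.10 (interferon) and -0.093 (averaged interferon). The replicate block with that correction called 17 and 3, 5, 29 and 10, and 1 for doxycycline, with medians of -0.12, 0.0030, -0.074, -0.10 and -0.092. DESeq2 called 1 for interferon, 1 for both agents against interferon, 22 and 4 for the averaged effects. With only the groups compared, 1 was called for interferon and 0 for both agents against doxycycline (median -0.20). No filter called 5 for the averaged doxycycline effect, and a stricter filter gave medians of -0.20 (both agents against doxycycline) and -0.17 (averaged interferon). Summing all rows of a symbol called 2 for both agents against doxycycline and 1 for the averaged doxycycline effect, with medians of -0.0135 (both agents against interferon), -0.0255 (interaction), -0.19 (averaged interferon) and -0.16 (interferon). Without both replicates 1 given doxycycline, chosen after seeing the data, 1, 4, 0, 6 and 1 were called for both agents against doxycycline and untreated, the averaged doxycycline and interferon effects and interferon, with medians of -0.19 (both agents against doxycycline), -0.046 (against interferon) and -0.17 (averaged interferon). The causes of these shifts were not tested. Size factors and TMM factors computed without the members kept every count within 1.5 times, and no named gene's call reversed in direction under any alternative. Depth limits low members such as RPS27 and RPS28, with 61 to 143 reads per library.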
